A study of Rattus norvegicus with 4 samples.

Results

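C-type lectins, Siglecs and galectins are the main families of sugar-binding proteins of macrophages. They were taken here as all rat RefSeq symbols that begin with Clec, Siglec or Lgals followed by a digit, 58 symbols of which 5 are pseudogenes. Of these, 43 genes were matched to 59 probes by transcript accession, out of 16581 named genes on the array. The 10 protein-coding symbols not matched to a probe were Clec16a, Clec18a, Clec19a, Clec20a, Clec2gl1, Clec2h, Clec3b, Clec4g, Siglec8 and Siglec10. The rule also takes in Lgals3bp, which is no galectin but a secreted glycoprotein that galectin-3 binds, and it is described with the galectins.

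The RNA came from NR8383, a continuous line of alveolar macrophages first obtained by washing the lung of a normal rat, which grows partly attached and partly floating. All samples were of 1 group, cells at 20 passages that had been exposed to carbon black (Printex 90), a nanoscale carbon powder used as a model particle in inhalation studies, at 0.9 cm²/cm² for 4 h. The 4 biological replicates were each hybridised to a 1-colour Agilent array. The series asked how carbon black changes gene expression, but cells incubated without particles were not analysed here, so every value below is a level in exposed cells of 1 line and no effect of carbon black is given.

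C-type lectin receptors carry a fold that in many members binds sugars with the help of calcium. Many are paired, in that some signal through an activating ITAM motif of their own tail or of an adaptor, and others carry an inhibitory ITIM motif that recruits phosphatases. Siglecs bind sialic acid on the cell's own and on other surfaces with an outer immunoglobulin domain, and many carry an ITIM in the tail. Galectins are soluble, bind galactosides, and also act inside the cell, where they mark broken phagosomes and lysosomes.

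The macrophage label was set beside cell type markers. The marker lists were chosen by hand with earlier results of these data known, so they are no independent check. A gene is called detected on an array where the scanner software marked its probe as well above background. All 8 macrophage markers were detected on all 4 arrays, among them Cd68, Ptprc and Spi1. Of 32 measured markers of 6 other cell types, 26 were detected on no array, 4 on some, and 2, the dendritic cell factor gene Batf3 and the endothelial adhesion gene Pecam1, on all. Every measured T cell, NK cell, B cell and epithelial marker was among those detected on no array. The part of other cell types in the lectin signal was not tested. Between 37.5% and 40.9% of 45598 probes were detected per array, and all arrays lay on 1 slide with 1 scan time. Saturation did not occur in any non-control spot.

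The level of a gene is given on a log2 scale, as processed intensity relative to the 75th percentile of all probes of its array, so that 0 is that percentile. The spread is the SD over 4 arrays, a number that limits its precision. A level belongs to its own probe and is not set against that of another gene. Detected spots reached down to levels of -2.29, -3.05, -2.56 and -2.40 on replicates 1 to 4, and a gene that was not detected has only an upper limit there, the higher of that level and its own reading. Values given for arrays without the mark are such readings.

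Of the 43 measured members, 19 were detected on all 4 arrays (44.2%), 9 on 1 to 3 arrays and 15 on none. Over all named genes the share on all arrays was 48%, the share on 1 to 3 arrays 8% and the share on none 44%. The counts differed between the roles, which were assigned by hand with earlier results of these data known. That difference was not tested. Under a weaker mark that asks only for signal above noise, 29 of 43 members passed on all arrays (67.4%), against 56.5% of named genes. The share of members was thus below that of named genes with the main mark and above it with the weaker one.

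**Figure D1:**
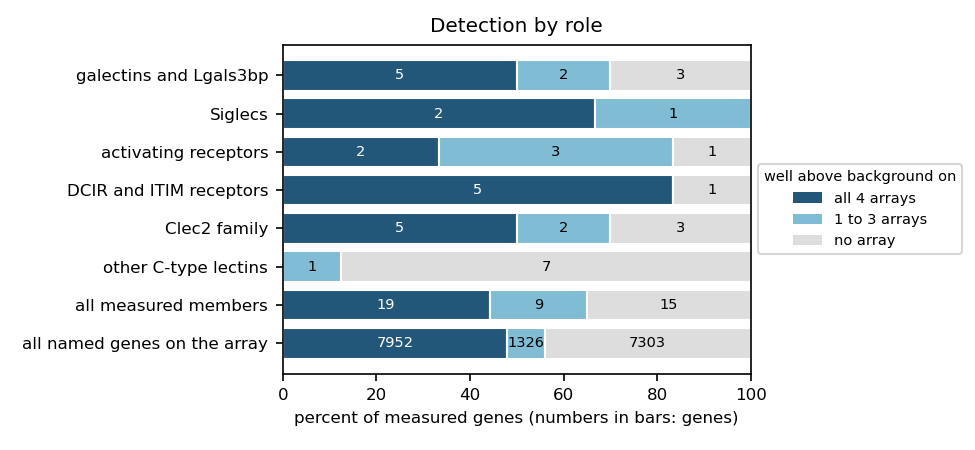
Share of measured genes (percent, x axis) detected on all 4 arrays, on 1 to 3 arrays or on none, by role of the lectin (rows), with all 43 members and all 16581 named genes in the last rows. Numbers in the bars are genes. The DCIR and ITIM receptors have 5 of 6 on all arrays, and the other C-type lectins 0 of 8.

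Of the 10 measured galectin genes, Lgals3bp included, 5 were detected on every array, 2 on some and 3 on none. The share of all named genes detected on every array was 48%. Galectin-3 (Lgals3), the macrophage galectin once known as Mac-2, had levels of 8.41, 8.62, 9.09 and 8.94 on replicates 1 to 4, a mean of 8.77 ± 0.31 (SD, n = 4). Its signal was highest on replicate 3 and lowest on replicate 1, with a probe that has 1 spot on each array. A second probe of Lgals3, spotted 10 times on each array, gave 8.29, 8.40, 8.82 and 8.62 (SD 0.24), with the replicates in the same order. The SD between the 10 spots of this probe was 0.17, 0.069, 0.096 and 0.13 on replicates 1 to 4. All spots of replicate 3, from 8.71 upwards, lay above all spots of replicates 1 and 2, which reached 8.65 and 8.50, while replicate 4 reached 8.78.

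Galectin-1 (Lgals1), a dimeric galectin with a part in restraining inflammation, had levels of 5.50, 5.76, 5.81 and 5.69 (mean 5.69 ± 0.14). Replicate 1 was lowest. None of its 10 spots there, up to 5.59, reached the lowest spot of the other arrays, 5.62 on replicate 4. Both galectins thus had their lowest level on replicate 1, as did 41.3% of the named genes detected on every array. The galectin-3 binding protein gene Lgals3bp had 6.02, 6.04, 6.03 and 5.95 (mean 6.01 ± 0.042).

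**Figure D2:**
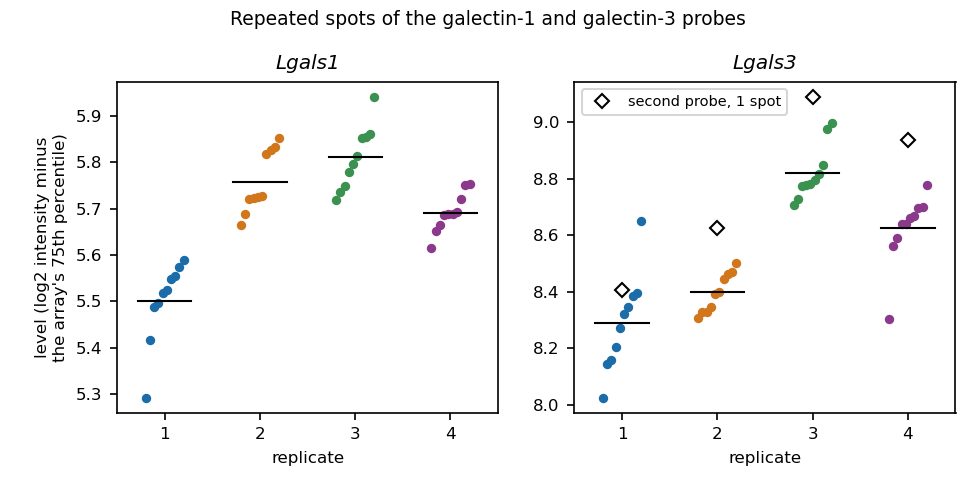
Level of single spots (log2 intensity minus the array's 75th percentile, y axis) of the probes spotted 10 times for Lgals1 (left) and Lgals3 (right) on the arrays of replicates 1 to 4 (x axis). Circles are spots in order of level and black lines their means. Diamonds, labelled second probe in the legend, are the Lgals3 probe with 1 spot, which gave the level of the gene. In Lgals3 both probes are lowest on replicate 1 and highest on replicate 3.

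Galectin-8 (Lgals8), which recruits autophagy receptors to broken vesicles, had levels of 2.04, 1.95, 1.97 and 2.02 (mean 1.99 ± 0.045). Each of its 3 probes was well above background on every array, the others with means of 1.53 ± 0.14 and 1.34 ± 0.13. The adipocyte galectin gene Lgals12 was less even, with -0.75, -0.63, -1.95 and -1.23 (mean -1.14 ± 0.60). Replicate 3 was lowest. This rests on 1 probe, since the second probe of Lgals12 was well above background on no array. Without replicate 3 the SD of Lgals12 was 0.32.

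The remaining galectins had little signal. Galectin-5 (Lgals5), a rat gene close in sequence to Lgals9, was well above background on replicates 2 and 3 with levels of -2.43 and -2.52, and read -3.96 and -3.36 without the mark on replicates 1 and 4. Its second probe was marked on no array. Lgals2, an intestinal galectin, was marked on replicate 1 alone, at -1.25, and lay between -5.05 and -4.18 on the others. Galectin-9 (Lgals9), a ligand of the receptor TIM-3, and the epithelial galectins Lgals4 and Lgals7 were well above background on no array. The Lgals9 probe was matched to 1 of the RefSeq transcripts of the gene, and a probe cannot be assumed to tell Lgals5 and Lgals9 apart, since its sequence was not used here. The receptor gene of galectin-9, Havcr2, was likewise well above background on no array.

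Of 12 measured genes of ligands and partners of galectins, 10 were detected on every array, against 48% of all named genes. This list and those in later paragraphs were chosen by hand with earlier results of these data known. No weight therefore rests on the difference in share. Beside Lgals3bp, the hyaluronan receptor gene Cd44 had a mean of 5.74 ± 0.097 and the integrin gene Itgb1 5.37 ± 0.039. Mgat5, the enzyme that builds the branched glycans galectin-3 prefers, was at -0.92 ± 0.26. The 2 detected on no array were Havcr2 and Trim16, a ubiquitin ligase that works with galectin-3 at damaged membranes. The 10 detected genes entered the test of spread described below, and 0 passed (limma, adjusted p under 0.05; 0 had an unadjusted p under 0.05).

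All 3 measured Siglecs had some signal, 2 of them on every array, against 48% of all named genes. Sialoadhesin (Siglec1), a long macrophage receptor that binds sialylated cells and vesicles and lacks an ITIM, had levels of 3.90, 3.83, 3.83 and 3.71 (mean 3.81 ± 0.080). The replicates lay close together. Siglec5, a member of the CD33-related group, had -0.95, -1.02, -0.99 and -0.47 (mean -0.86 ± 0.26). Replicate 4 stood above the others, and it did so with the second Siglec5 probe too, at -1.03 against -1.80, -2.02 and -1.52 on replicates 1 to 3. Siglec15, known from osteoclasts, was marked on replicate 2 alone, at -2.36, beside an unmarked -2.37 on replicate 1, -3.36 on replicate 3 and -3.89 on replicate 4.

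A list of genes that make, attach or remove sialic acid, the ligand of Siglecs, was also chosen by hand. Of its 14 measured genes, 11 were detected on every array, against 48% of all named genes. Gne, which starts the synthesis of sialic acid, had a mean of 3.15 ± 0.10, and the next enzymes Nans and Nanp were at 4.09 ± 0.12 and -1.26 ± 0.15. The 5 listed transferases of the alpha-2,3 linkage (St3gal1, St3gal2, St3gal4, St3gal5 and St3gal6) were detected on all arrays. St3gal3 was not on the list, and the listed St6galnac4 was not matched to a probe. The list does not hold every sialic acid transferase, so the linkages cannot be compared from it. St6gal1, which makes the alpha-2,6 linkage, the polysialic acid enzyme gene St8sia4 and the sialidase gene Neu3 were detected on no array.

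Among 6 measured activating receptors, 2 were detected on every array, 3 on some and 1 on none. The share of all named genes detected on every array was 48%. Dectin-1 (Clec7a), the receptor of fungal beta-glucan, had levels of 6.02, 6.07, 6.09 and 5.90 (mean 6.02 ± 0.082). Its second probe was also marked on every array, with a mean of 4.21 ± 0.16. Clec5a (MDL-1), which signals through the adaptor DAP12, had 1.90, 1.70, 1.54 and 1.59 (mean 1.68 ± 0.16). With the probe of the highest mean, the arrays differed by no more than 0.36 log2 units in either gene. The second Clec7a probe ran from 4.07 on replicate 2 to 4.44 on replicate 1.

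The remaining activating receptors lay at the edge of detection. Mincle (Clec4e), which recognises mycobacterial glycolipid and a nuclear protein of dying cells, was marked on replicate 2 alone, at -2.34, and lay at -3.58, -3.57 and -3.11 on replicates 1, 3 and 4. Its partner MCL (Clec4d) was marked on replicates 2, 3 and 4 with levels of -2.14, -1.61 and -1.92, and lay at -2.61 on replicate 1 without the mark. Its second probe was marked on replicates 2 and 4. Clec9a, a receptor for the actin of dead cells known from dendritic cells, was marked on the same arrays, with -1.89, -1.996 and -1.98, and lay at -2.50 on replicate 1. This rests on 1 probe, since the second Clec9a probe was marked on no array. All 3 therefore lacked the mark on replicate 1, the array with the highest background: its 99th percentile of negative control spots was 27.1 intensity units, against 4.95 to 7.40 on the others. Replicate 1 had 8370 named genes detected, against 8833, 8405 and 8351 on replicates 2, 3 and 4. The part of that background in the missing marks was not tested. Without replicate 1, 21 members were detected on all remaining arrays, the 2 more being Clec4d and Clec9a. CLEC-2 (Clec1b), known from platelets, was marked on no array with either of its probes.

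For the signalling chain below these receptors a list chosen by hand had 14 measured genes. Of these, 13 were detected on every array, against 48% of all named genes. Among them were the kinase gene Syk with 3.43 ± 0.096 and Card9 with 3.71 ± 0.14. The ITAM adaptor genes Fcer1g and Tyrobp (DAP12) were at 8.29 ± 0.091 and 9.18 ± 0.085. The ITIM-bound phosphatase genes Ptpn6 and Inpp5d were at 8.25 ± 0.090 and 3.77 ± 0.12. Src was detected on no array and Malt1 was not matched to a probe. Of the 13 genes of this list, 11 of the sialic acid list and 2 of the list of other sugar-binding genes that could be tested for spread, 0 passed (limma), with 0 at an unadjusted p under 0.05.

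Receptors of the DCIR group and other ITIM receptors had 5 of 6 measured members detected on all 4 arrays (83.3%), against 48% of all named genes. The roles were assigned by hand with earlier results of these data known, so their shares are not ranked. Clec4b2, a neighbour of the DCIR genes, was placed with the other C-type lectins, and Siglec5 with the Siglecs. The DCIR group is a set of neighbouring Clec4a genes, of which some carry an ITIM. Clec4a1 (DCIR4) had levels of 4.54, 4.77, 4.77 and 4.71 (mean 4.70 ± 0.11) and Clec4a3 (DCIR3) 4.86, 4.88, 4.76 and 4.72 (mean 4.80 ± 0.078). Clec4a2 (DCIR2) had 0.84, 1.18, 0.997 and 1.03 (mean 1.01 ± 0.14). The ITIM receptor gene Clec4a (DCIR1) had -1.86, -1.32, -1.61 and -1.27 (mean -1.52 ± 0.27), and its second probe was marked on replicate 2 alone. Clec12a (MICL), an ITIM receptor that senses crystals of uric acid released by dead cells, had 1.62, 1.76, 1.48 and 1.44 (mean 1.57 ± 0.15). In none of the 5 did the lowest and the highest array differ by more than 0.59 log2 units. Clec12b, its relative, was marked on no array.

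The order of the genes on the chromosome, taken from the RefSeq table of assembly GRCr8 for names only, was set beside detection. The 4 DCIR genes lie side by side (Clec4a1, Clec4a3, Clec4a2, Clec4a), and each was detected on every array. The genes that follow were not, with Clec4b2 on no array, Clec4d on 3 and Clec4e on 1. In the Dectin-1 cluster the outermost genes, Clec12a and Clec7a, were detected on all arrays, while of the genes between them Clec12b, Clec1b and Clec1a were on none and Clec9a on 3. In the Clec2 cluster detected and undetected genes alternated: in order, Clec2d2l3 was detected on 4 arrays, Clec2d2 on 1, Clec2d2l1 and Clec2d2l2 on none, Clec2d and Clec2dl1 on 4, Clec2e on none, Clec2g on 4 and Clec2ml1 on 1. Genes of these clusters are related, and whether a probe also binds the transcript of a neighbour was not tested.

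Promoters of 4 of these receptors are shown because the genes are relatives with unlike signal, Clec12a and Clec7a being detected on all arrays, Clec4e on 1 and Clec12b on none. They were chosen after their values were seen. Each is the 250 bases before the start of the gene from RefSeq, build GRCr8, on the gene's own strand. Capitals mark GAGGAA, or TTCCTC where it lies on the other strand, the core of many sites of the macrophage factor PU.1, whose gene Spi1 had a mean level of 3.84 ± 0.063.
Clec12a, chr4:164483912-164484161, plus strand: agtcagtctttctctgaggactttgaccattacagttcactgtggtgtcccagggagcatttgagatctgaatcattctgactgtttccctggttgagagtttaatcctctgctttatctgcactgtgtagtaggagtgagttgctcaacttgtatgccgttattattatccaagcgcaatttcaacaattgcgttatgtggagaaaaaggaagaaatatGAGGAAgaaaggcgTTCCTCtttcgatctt
Clec7a, chr4:164599828-164600077, minus strand: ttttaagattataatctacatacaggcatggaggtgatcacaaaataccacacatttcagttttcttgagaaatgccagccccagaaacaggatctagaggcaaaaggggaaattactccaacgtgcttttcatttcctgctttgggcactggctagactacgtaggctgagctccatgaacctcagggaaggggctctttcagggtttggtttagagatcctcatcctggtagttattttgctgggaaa
Clec4e, chr4:158298468-158298717, minus strand: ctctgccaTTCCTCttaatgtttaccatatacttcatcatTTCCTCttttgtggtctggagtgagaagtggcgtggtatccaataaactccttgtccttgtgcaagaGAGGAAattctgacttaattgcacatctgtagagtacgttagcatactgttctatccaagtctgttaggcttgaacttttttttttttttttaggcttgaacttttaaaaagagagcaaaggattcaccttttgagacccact
Clec12b, chr4:164524977-164525226, minus strand: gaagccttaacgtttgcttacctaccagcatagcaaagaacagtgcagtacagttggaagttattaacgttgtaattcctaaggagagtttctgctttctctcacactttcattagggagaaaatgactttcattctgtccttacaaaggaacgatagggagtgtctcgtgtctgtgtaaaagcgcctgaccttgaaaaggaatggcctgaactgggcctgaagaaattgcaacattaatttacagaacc

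Clec12a held 2 such matches, 30 and 16 bases before the start counted from the first base of the match, and Clec4e held 3, the nearest at 143 bases. Clec7a and Clec12b held 0. The 4 genes were picked after their values were seen, so whether the match goes with the signal cannot be told from them. Of 34 measured members with a promoter in the table, 11 held GAGGAA on either strand (32.4%), against 23.3% of 33469 promoters of the same length. By detection it was 5 of 14 members marked on all arrays, 3 of 8 on 1 to 3 arrays and 3 of 12 on none. The AP-1 letters TGANTCA were in 3 of the 34 (8.82%), against 6.34% of all promoters. A match of letters is a description and not a binding site.

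The Clec2 family are cell-surface ligands of NKR-P1 receptors on NK cells rather than sugar receptors. Of its 10 measured genes, 5 were detected on every array, 2 on some and 3 on none. The share of all named genes detected on every array was 48%. Clec2d (OCIL), a ligand that restrains NK cells, had levels of 0.26, 0.34, 0.37 and 0.27 (mean 0.31 ± 0.057). Clec2g had 0.73, 1.03, 0.80 and 0.73 (mean 0.82 ± 0.14), and Clec2d2l3 had 0.67, 0.59, 0.68 and 0.67 (mean 0.65 ± 0.043). In Clec2d2l3 replicate 2 lay below the other arrays, by less than 0.1 log2 units.

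The probes of Clec2dl1 belonged to different transcripts of the gene, and both were marked on every array. One gave 5.45, 5.52, 5.55 and 5.42 (mean 5.49 ± 0.060) and the other a mean of 0.63 ± 0.082. The replicates lay close together with each probe. Clec2l, known from the brain, had -1.73, -1.35, -1.40 and -1.06 (mean -1.38 ± 0.27). Clec2d2 was marked on replicate 2 alone, at -2.35, beside readings of -2.98, -2.74 and -2.44 without the mark. Clec2ml1 was marked on replicate 1 alone, at -2.05, beside -5.19, -4.71 and -4.60. That mark was near the lowest level of detected spots on replicate 1, -2.29. Detected spots there reached down to 22.3 intensity units, below the 99th percentile of its negative control spots, 27.1. Clec2d2l1, Clec2d2l2 and Clec2e were marked on no array. Genes of this family are near copies of each other, so a signal here is uncertain as to which copy it came from.

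Of the 8 other C-type lectins, 0 were detected on every array, against 48% of all named genes. Under the weaker mark for signal above noise, 3 of them passed on all arrays, Clec14a, Clec1a and Clec4m. Of all named genes 56.5% passed that mark. Clec4f, the galactose receptor of Kupffer cells in the liver, was marked on replicate 4 alone, at -2.28, and lay between -4.82 and -4.25 on the others. Clec10a (MGL), a galactose-type receptor of macrophages and dendritic cells, the melanin receptor gene Clec1a, Clec4b2 and Clec4m were marked on no array. The same held for the endothelial gene Clec14a, the secreted growth factor gene Clec11a and the cartilage gene Clec3a. Of 13 measured sugar-binding genes outside the 3 symbol families, a list also chosen by hand, 2 were detected on all arrays. The share over all named genes was 48%. The 2 detected were the mannose receptor gene Mrc1 at 2.22 ± 0.13 and Mag, a myelin Siglec, at -1.24 ± 0.21. Sftpd was marked on 1 array, the B cell Siglec gene Cd22 and 9 more were on none, and Ly75, Cd209 and Cd33 were not matched to a probe.

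**Figure D3:**
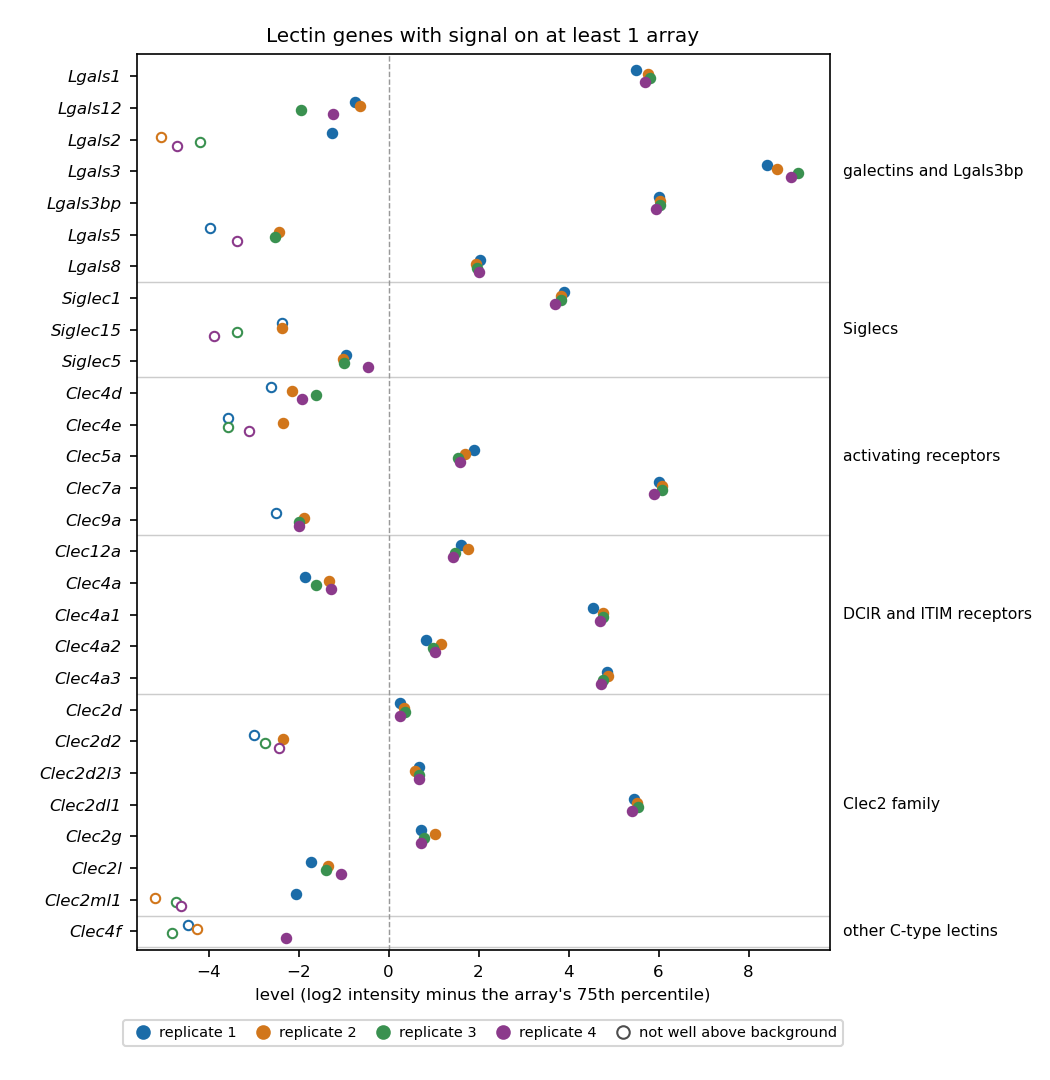
Level (log2 intensity minus the array's 75th percentile, x axis) on each of the 4 arrays for the 28 lectin genes detected on at least 1 array (rows, by role). Filled points are marked well above background and open points are readings without that mark; the dashed line is the 75th percentile. Points of 1 gene lie close together for Clec7a and Lgals3bp, and apart for Lgals12, Lgals2 and Clec2ml1.

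The spread between replicates was then set against that of genes of like brightness. Over the 19 members detected on every array the SD ran from 0.042 to 0.60 with a median of 0.136, against a median of 0.141 over named genes so detected and 0.150 with unnamed transcripts included. Without replicate 1 the median was 0.0844 over 21 members, 0.119 over named genes and 0.128 with unnamed transcripts. Of 22 members detected on at least 2 arrays, 0 passed the one-sided test of excess variance (limma, adjusted p under 0.05), where 0.0943% of 8488 named genes and 0.462% of all 14927 genes and unnamed transcripts passed. At an unadjusted p under 0.05, 2 members passed, against 2.8% of named genes and 5.07% of all tested.

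These 2 were galectins. Lgals3 had an SD of 0.31 where 0.14 was fitted for its brightness (limma, adjusted p = 0.939), and Lgals12 an SD of 0.60 against 0.27 (limma, adjusted p = 0.961). Neither therefore passed. Both SDs were lower with normexp, at 0.13 for Lgals3 and 0.14 for Lgals12. That setting adds an offset of 50 to each intensity, which by itself narrows the log2 spread of dim genes such as Lgals12. Its values therefore cannot tell what background correction alone does. Lgals3, with a mean level of 8.77, is not a dim gene, and what lowered its SD was not tested. The SD of Lgals3 was 0.20 with quantile normalization. The narrowest spreads belonged to Lgals3bp, Clec2d2l3 and Lgals8, with SDs of 0.042, 0.043 and 0.045. This order depended on the probe, since the other probes of Lgals8 had SDs of 0.14 and 0.13. It also depended on the processing. With the percentile over detected probes the SD was 0.099 for Clec2d2l3 and 0.103 for Lgals8, above the 0.041 of both Clec2d and Clec2dl1. With normexp it was 0.154 for Lgals3bp, 0.091 for Lgals8 and 0.163 for Clec2dl1.

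**Figure D4:**
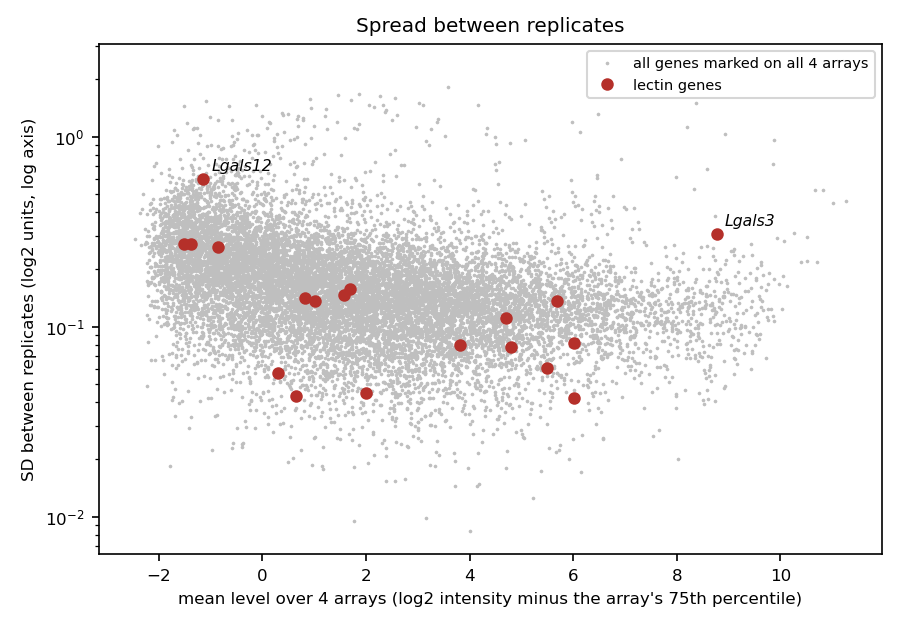
SD between the 4 replicates (log2 units, log axis) against mean level (log2 intensity minus the array's 75th percentile) for all genes and unnamed transcripts detected on every array (grey) and the 19 lectin genes among them (red). Lgals3 and Lgals12, which are named, had an unadjusted p under 0.05 in the variance test and did not pass after adjustment.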

How the data were processed

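Exposed NR8383 cells, 4 biological replicates in 1 group, gave the RNA; group and replicate came from the labels, whose protocols give 48 h in 25 cm² flasks, 15% serum, an RNA integrity number above 7.5 and 100 ng of RNA labelled with Cy3. The deposited intensity on a linear scale was computed by Agilent Feature Extraction 11.0.1.1, background-subtracted and detrended within the array, per the file headers, and was not normalized between arrays. The detection marks are 0 or 1 per spot, per the file headers.

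Control spots and non-uniform spots (0 to 7 an array) were dropped, processed intensity was taken to log2 and averaged by probe, and each array was centred on the 75th percentile of its probes. The same percentile over detected probes was an alternative. Accessions were matched to RefSeq symbols (assembly GRCr8), which named 21109 probes (46.3%). A gene took the probe with the highest mean, and counted as well above background on an array if any of its probes had the mark on at least 50% of its spots. An intercept was fitted with limma 3.58.1 in R 4.3.3, and each variance was set against the squeezeVar prior with a trend (6.50 prior degrees of freedom) by an upper-tailed F test, one-sided, adjusted by Benjamini-Hochberg over 14927 genes and checked on simulated data. Replicates correlated at Pearson r between 0.981 and 0.993 across these genes, which are not independent.

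Every member is named, with levels where it was marked. Members, roles and lists were chosen with earlier results of these data known. Alternatives were other scalings, background correction, probe choice, filters, priors and each replicate left out. Mean spot signal was not among the columns, so normexp used the median signal (offset 50).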

Additional observations from a re-analysis of the deposited data

Results flagged for a closer look

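In 2 of the 19 members detected on all 4 arrays, 1 array stood apart from the others by more of the whole range than the 95% critical value of Dixon's test for 4 values. Chance gives about 1 in 20 such genes. Of 7952 named genes detected on all arrays, 6.02% had such an array. Siglec5 had a level of -0.47 on replicate 4 against -1.02 to -0.95 on the other 3. Clec2d2l3 had 0.59 on replicate 2 against 0.67 to 0.68 on the others, a gap that is small because those 3 lay so close together.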

How the results depend on the processing

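The number of members past the variance test was 0 under all 12 other settings tried (limma), with 0 to 3 at an unadjusted p under 0.05 and a lowest adjusted p of 0.234, for Lgals2 without the filter on dim probes. The number over all genes and unnamed transcripts, 69, was 0 with the 75th percentile over detected probes, 0 over all spots, 1 with quantile normalization, 237 with normexp, 356 without the filter, 0 with the prior made robust, 0 when it had no trend, and 27 to 162 without 1 replicate, so no weight rests on it. The median SD of members, 0.136, was 0.0990, 0.0944 and 0.103 under the 3 other scalings, where that of named genes was 0.128, 0.128 and 0.127. It was 0.140 with normexp and 0.125 with the mean over probes, against 0.152 and 0.145 over named genes. Without 1 replicate it was 0.0844 to 0.136, against 0.119 to 0.156. Only without replicate 4 was the member median the higher, 0.136 against 0.132. The gap between members and named genes thus depended on the setting. The number of members detected on all arrays, 19, was 29 with the mark for signal above noise, 22 and 28 when at least 2 arrays or 1 array were asked for, 19 with 1 probe a gene, and 19 to 21 without 1 replicate. No single member's SD came to pass the test in any setting. No paired analysis was possible because the samples form 1 group. Probe sequences were not used here, so cross-binding among near copies was not tested, and the dimmest genes have only bounds.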
